A study of Mus musculus with 6 samples.

Results

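The Ifi200 family is a cluster of interferon-inducible genes on mouse chromosome 1 that encode PYHIN proteins, which as a rule pair a pyrin domain for binding other proteins with a HIN domain that binds DNA. Its best known member, Aim2, senses double-stranded DNA in the cytosol and assembles an inflammasome with the adaptor ASC and caspase-1, and Ifi204 senses DNA upstream of the adaptor STING. The cluster grew by repeated gene duplication, so several members are near copies of each other, and macrophages are among the cells that express most of them. The 9 genes described here, Aim2, Ifi203, Ifi204, Ifi205, Ifi207, Ifi209, Ifi211, Ifi213 and Mndal, were listed by symbol and are 9 of the 55421 genes in the count table. All 9 passed the filter on low counts, as did 14469 genes in all. The list was drawn up around a rise of Ifi205 in the same comparison, so its members were selected on their measured counts in the contrast described here, and the differences of these 9 genes between the genotypes are given as a description. Where it is stated which of them were past a test's threshold, the share of all genes stands beside it and nothing is read from it.

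The cells were tumor-associated macrophages (TAMs) labelled as CD11b+F4/80+ cells from M17 tumors on day 15. The study's methods name the fibrosarcoma line MC17-51 and, for TAMs taken for RNA-seq, a sort of live cells that were also CD45+ and Ly6G-. Pdcd1f/f mice carry a floxed Pdcd1 gene, which encodes the receptor PD-1, and no Cre, and are called controls here. Pdcd1f/fLysMcre mice carry the same floxed gene and Cre driven from the lysozyme locus, which is active in myeloid cells at large and not only in TAMs. RNA-seq was done on 3 libraries of each genotype, with 41833823 to 51417209 counts in a library. Nothing in the labels says whether the replicates came from separate mice, so the p-values below measure the spread between these libraries, which may be technical. Lyz2, the lysozyme gene that carries the Cre, had between 207974 and 225226 normalized counts in the controls and between 405 and 465 in the Pdcd1f/fLysMcre libraries, a clear separation by label in every library. Pdcd1 itself had 10, 12 and 15 counts in Pdcd1f/f replicates 1 to 3 and 7, 16 and 11 in Pdcd1f/fLysMcre replicates 1 to 3, and a count over the whole gene does not show whether the floxed part was lost. Counts of 4 Y-linked genes, normalized and summed, ran from 1545 to 1914 in controls and from 6267 to 7233 in Pdcd1f/fLysMcre libraries, so the genotype and the sex make-up of the libraries cannot be told apart in any result below. No control carried Cre, so the presence of Cre and the low Lyz2 counts cannot be told apart from the targeting of Pdcd1 either.

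The 9 genes span 0.681 Mb of chromosome 1 (chr1:173350879-174031810 of GRCm38), 79.3 Mb from Pdcd1 on the same chromosome. Aim2 stands at the end nearer to Pdcd1 (chr1:173350879-173466040, plus strand) and Ifi205 at the far end (chr1:174011998-174031810, minus strand). Between them lie Ifi213 (chr1:173566283-173599274, minus strand), Ifi209 (chr1:173630917-173647928, plus strand), Ifi207 (chr1:173723427-173741747, minus strand), Ifi204 (chr1:173747293-173766943, minus strand), Mndal (chr1:173849126-173942491, minus strand), Ifi211 (chr1:173896345-173913046, minus strand) and Ifi203 (chr1:173920407-173942672, minus strand). The annotated span of Mndal encloses Ifi211 and reaches into Ifi203, with which it shares 37 exonic bases on the same strand. The same interval holds Ifi206, Ifi208, Ifi214, Ifi202b and the pseudogene Ifi203-ps, which were not on the list and were compared with it.

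How far these genes resemble each other sets what a short read can tell. The reads were 42 bases long and paired, so every stretch of 42 bases in the annotated exons of each family gene, called a word here, was looked up in all other annotated transcripts. Ifi205 shared 836 of its 4175 words with another gene, or 20.0%, and all of them lay in Ifi211, Mndal, Ifi204 or Ifi207. Ifi211 was by far the closest, with 806 words in common, which were 19.3% of the words of Ifi205 and 46.6% of those of Ifi211. Mndal held 304 of the words of Ifi205, Ifi204 held 116 and Ifi207 held 3. Many words of Ifi205 come from a longer transcript with a retained intron, and in its protein-coding transcript 52.5% of the words were shared. Of all fragments of 200 bases, a length assumed here, that this transcript can give, 43.8% had a shared word at each end. The words at the ends of a fragment need not lie in the same other gene, so some of these fragments may still fit Ifi205 alone.

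The longest identical stretch between the coding sequences of Ifi205 and Ifi211 ran to 495 bases, followed by 182 bases with Mndal, 73 with Ifi204 and 44 with Ifi207. The following 84 coding bases, in a single exon of each gene on the minus strand, show the resemblance that matters for the Ifi205 count. They are given 5′ to 3′ from GENCODE transcripts on GRCm38, and capitals mark bases that differ from Ifi205. They lie at chr1:174017446-174017529 in Ifi205, chr1:173901832-173901915 in Ifi211, chr1:173862673-173862756 in Mndal, chr1:173755819-173755902 in Ifi204 and chr1:173974945-173975028 in Ifi202b.
Ifi205: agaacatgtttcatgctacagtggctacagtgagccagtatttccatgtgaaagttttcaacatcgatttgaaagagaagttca
Ifi211: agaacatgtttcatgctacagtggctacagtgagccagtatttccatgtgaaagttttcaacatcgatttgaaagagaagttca
Mndal: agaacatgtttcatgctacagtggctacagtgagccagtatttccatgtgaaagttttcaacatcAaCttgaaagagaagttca
Ifi204: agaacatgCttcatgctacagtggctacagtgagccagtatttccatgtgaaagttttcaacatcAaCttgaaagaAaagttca
Ifi202b: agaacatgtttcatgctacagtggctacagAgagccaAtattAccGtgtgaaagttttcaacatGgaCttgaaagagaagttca
A read from this stretch fits Ifi205 and Ifi211 equally well, since they are identical over all 84 bases. Mndal differs at 2 bases, Ifi204 at 4 and Ifi202b at 6, so that a whole read can be identical between Ifi205 and Mndal or Ifi204 but not between Ifi205 and Ifi202b, whose longest identical run here is 30 bases.

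Across the family, the words shared with any other gene made up 75.6% of those of Ifi211, 38.4% of Ifi209, 24.5% of Ifi204, 22.8% of Mndal, 19.4% of Ifi213, 16.1% of Ifi203 and 9.13% of Ifi207. Aim2 shared no word with a family gene, and Ifi202b shared none with any gene. The pairs formed separate blocks. Ifi209 shared words within the family with Ifi214 alone, and Ifi213 with Ifi206 and Ifi208, whereas Ifi204, Ifi207, Mndal, Ifi211, Ifi203, Ifi203-ps and Ifi205 formed another block. Ifi211 is the least distinct gene of the family, with 423 words of its own.

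**Figure D1:**
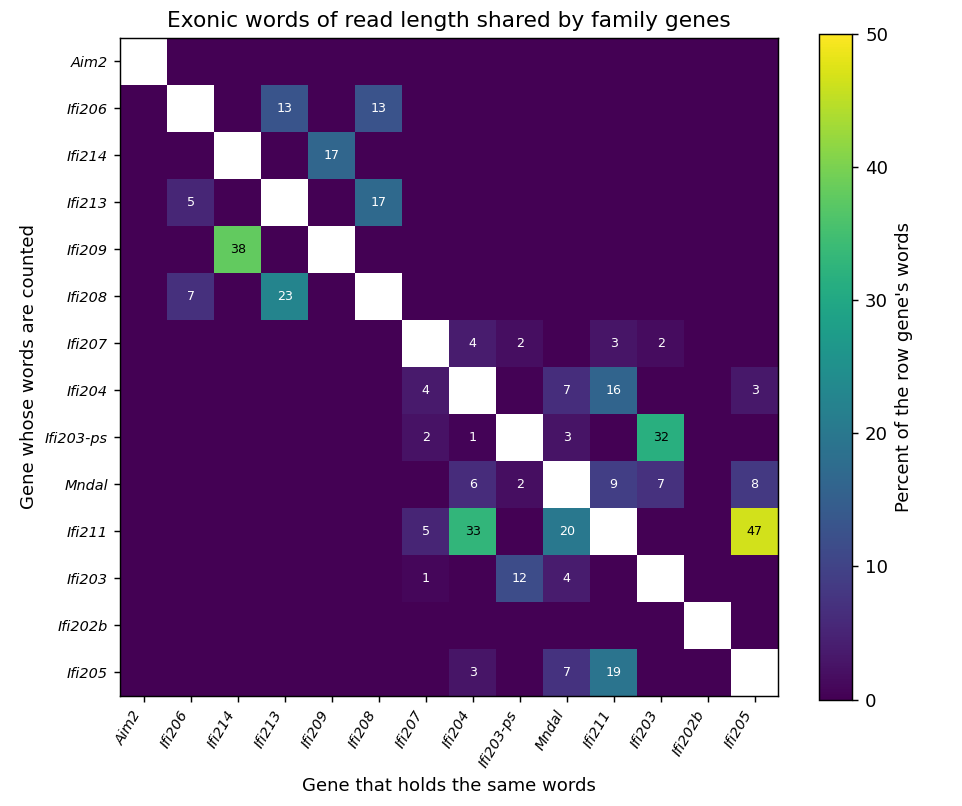
Share of the 42-base exonic words of each family gene (rows) that are found in each other family gene (columns), in percent of the row gene's words, with values from 0.5 percent upward printed in the cells and the diagonal left blank. Ifi205 has words in common with Ifi211, Mndal and Ifi204 above this limit, and 46.6% of the words of Ifi211 are found in Ifi205.

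The regions before the start sites were compared as well, since these genes are known to respond to interferon. GAAA, then any 2 bases, then GAAA again, a core of the interferon-stimulated response element, was looked for on both strands of RefSeq promoters of 300 bases (GRCm38.p6). It occurred in 3.44% of 32851 promoters, or in 3.99% of 27025 genes with a promoter entry, and in 6 of the 8 listed genes with an entry, namely Ifi203, Ifi205, Ifi207, Ifi211, Ifi213 and Mndal, but not Aim2 or Ifi209. Ifi204 had no entry. Among the other family genes, Ifi206, Ifi208 and Ifi214 had the letters and Ifi202b did not. The letters TTCNNNGAA, the core of a gamma-activated site, which reads the same on the other strand, occurred in 8.30% of promoters, in none of the 8 listed genes and in Ifi202b. The following 80 bases of Ifi205 (chr1:174031845-174031924), Ifi211 (chr1:173913047-173913126), Ifi207 (chr1:173741810-173741889) and Ifi213 (chr1:173599301-173599380), all on the minus strand and 5′ to 3′, show the match in capitals in the gene that was higher in Pdcd1f/fLysMcre TAMs and in genes that were not past the threshold.
Ifi205: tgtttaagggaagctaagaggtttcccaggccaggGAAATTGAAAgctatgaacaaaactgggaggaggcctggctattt
Ifi211: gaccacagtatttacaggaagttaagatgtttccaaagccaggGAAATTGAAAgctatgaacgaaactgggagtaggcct
Ifi207: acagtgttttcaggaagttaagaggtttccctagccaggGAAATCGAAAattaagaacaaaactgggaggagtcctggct
Ifi213: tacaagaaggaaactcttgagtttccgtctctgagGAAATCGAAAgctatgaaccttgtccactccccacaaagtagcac
The first of 2 matches of Ifi205 began 134 bases before its RefSeq start, and the single match lay 37 bases before that of Ifi211, 41 before that of Ifi207 and 73 before that of Ifi213. Ifi205 and Ifi211 carry the same letters, and Ifi207 and Ifi213 share another version. These are matches of letters and say nothing on binding.

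The levels of the 9 genes spread widely in TAMs. Values are normalized counts, which are counts divided by the size factor of their library, and levels are compared between genes only per kilobase of exon. In Pdcd1f/f TAMs the order of the levels was Ifi207, at 8705 ± 1119 normalized counts per kilobase (SD, n = 3), Ifi204 at 4363 ± 387, Ifi209 at 1906 ± 174, Mndal at 1382 ± 262, Ifi211 at 1329 ± 172, Ifi205 at 769 ± 68.9, Ifi203 at 688 ± 100, Aim2 at 511 ± 68.3 and Ifi213 at 332 ± 21.4. Neighbours in this order did not overlap between libraries of either genotype, except Mndal and Ifi211, which overlapped in both genotypes, and Ifi205 and Ifi203, which overlapped in control TAMs. Ifi205 lay above Ifi203 in 6 of 6 libraries. The order depends on which length is used. The exons of Ifi205 cover 4177 bases with its retained-intron transcript, against 1613 bases in its protein-coding transcript. Per kilobase of protein-coding transcript, Ifi205 would stand above Ifi211, whose transcript has 1785 bases. When all counts of a gene were divided by its number of unshared words, Ifi211 moved ahead of Ifi209 and Mndal and stood next to Ifi204. That divisor suits only counts without reads from shared words, and whether such reads were counted is not known.

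Ifi205, also known as p205, has been linked in macrophages to the expression of the inflammasome adaptor ASC. Its normalized counts were 3534, 3125 and 2979 in control replicates 1, 2 and 3, against 4301, 5450 and 4573 in the same-numbered Pdcd1f/fLysMcre libraries. Every Pdcd1f/fLysMcre library lay above every Pdcd1f/f library. The means were 3213 ± 288 and 4774 ± 600 (SD, n = 3 each), a ratio of 1.49 and a log2 fold change of 0.57 with a standard error (SE) of 0.10. Leaving out 1 library at a time gave values between 0.47 and 0.64, and correcting for GC content and length (loess offsets) gave 0.44. Ifi205 was the single one of the 9 genes past an adjusted p of 0.05 in edgeR's quasi-likelihood test over all genes, where 5.43% of the genes tested were past it in either direction, 2.42% as higher in Pdcd1f/fLysMcre TAMs and 3.01% as lower. It was no longer past it without Pdcd1f/f replicate 2. Nothing is read from this count, because the rise of Ifi205 was known when the list was made. In bulk RNA, a change in the number of cells that express a gene and a change in RNA per cell cannot be told apart.

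Ifi211, the gene that shares most with Ifi205, had 2728, 2202 and 2188 normalized counts in the controls and 2564, 2931 and 2595 in the Pdcd1f/fLysMcre libraries. The genotypes overlapped because Pdcd1f/f replicate 1 stood above the other 2 libraries of its genotype. The log2 fold change was 0.19 (SE 0.10).

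Mndal, a nuclear protein linked to growth suppression, had 6102, 4599 and 4345 normalized counts in the controls and 5163, 6212 and 4807 in the others, a log2 fold change of 0.11 (SE 0.13). Ifi204 had 17096, 15030 and 14485 in the controls and 16164, 18844 and 15524 in the others, a log2 fold change of 0.12 (SE 0.09). Both overlapped between the genotypes, with Pdcd1f/f replicate 1 and Pdcd1f/fLysMcre replicate 2 the highest of their groups. Ifi207, a large PYHIN protein linked to the STING pathway, had 34199, 27849 and 27316 normalized counts in the controls and 31262, 35657 and 28990 in the others, a log2 fold change of 0.10 (SE 0.10). Ifi211, Mndal, Ifi204 and Ifi207 are the 4 genes that share words with Ifi205. With GC and length offsets the log2 fold change was 0.01 for both Mndal and Ifi204.

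Ifi203, a nuclear family member that shares no word with Ifi205, had 5392, 4260 and 4194 normalized counts in the controls and 5341, 6315 and 4837 in the Pdcd1f/fLysMcre libraries, a log2 fold change of 0.25 (SE 0.12) with overlapping genotypes. Among the listed genes this value was second in size to that of Ifi205 with all 6 libraries, but not with GC and length offsets, where Ifi203 stood at 0.12, Ifi211 at 0.13 and Ifi213 at −0.16. Ifi209 had 7475, 6402 and 6408 normalized counts and 7132, 8076 and 6734, in the same order, a log2 fold change of 0.12 (SE 0.09). The values of Ifi213 were 2390, 2106 and 2309 in the controls and 2136, 2285 and 2186 in the others, and the log2 fold change was −0.04 (SE 0.07), or −0.16 (SE 0.06) with GC and length offsets. With the replicate number as a block beside these offsets Ifi213 was past the threshold as lower, in a fit where 3076 of all genes were past it in either direction.

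Aim2, the DNA sensor of the inflammasome, had 2048, 1740 and 1578 normalized counts in the controls and 1688, 1899 and 1663 in the Pdcd1f/fLysMcre libraries, a log2 fold change of −0.03 (SE 0.10) that became −0.10 with GC and length offsets. Leaving out 1 library at a time moved most of these values by more than 1.5 times. They ran from 0.14 to 0.37 for Ifi203, from 0.12 to 0.29 for Ifi211 and from −0.01 to 0.26 for Mndal. For Ifi204 they ran from 0.03 to 0.18, for Ifi207 from 0.02 to 0.21 and for Ifi209 from 0.04 to 0.18. Those of Ifi213 ran from −0.09 to −0.01, and those of Aim2 from −0.11 to 0.07. The median log2 fold change of the 9 genes was 0.12, against −0.00258 over all genes tested, and 0.01 with GC and length offsets. The genotypes overlapped for 8 of the 9 genes, all but Ifi205. Among all genes tested, 27.2% did not overlap, and in 14.1% the Pdcd1f/fLysMcre libraries were the higher ones.

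**Figure D2:**
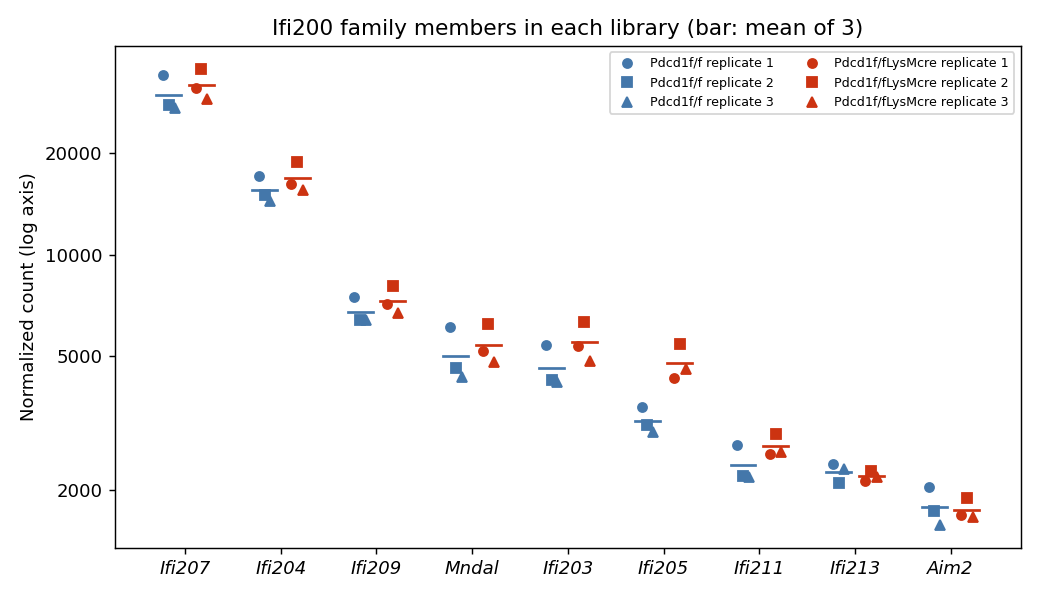
Normalized counts of the 9 genes in each of the 6 libraries on a log axis, with a bar at the mean of the 3 libraries of each genotype and a marker shape for each replicate number. Ifi205 is the gene in which all Pdcd1f/fLysMcre libraries, from 4301 to 5450, lie above all Pdcd1f/f libraries, from 2979 to 3534.

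The highest libraries were the same throughout the list. In 9 of the 9 genes Pdcd1f/f replicate 1 was the highest Pdcd1f/f library and Pdcd1f/fLysMcre replicate 2 the highest Pdcd1f/fLysMcre library, which held for 43.4% and 40.0% of all genes tested. In these libraries the deviation of a gene from the mean of its genotype fell with its GC content (Spearman's rho −0.751 and −0.667 across 11480 genes, which are not independent), and in the other 4 it rose (0.168 to 0.693). The exons of the 9 genes had a GC content between 37.1%, in Ifi205, and 43.9%, against a median of 49.6% over all genes tested. With both libraries left out, Ifi205 had a log2 fold change of 0.54 (SE 0.06), Ifi203 of 0.26 (SE 0.06), Ifi211 of 0.23 (SE 0.06) and Mndal of 0.15 (SE 0.05). All 4 were then past the threshold, as were 26.2% of all genes tested. With GC and length offsets, where 20.0% of all genes were past the threshold, Ifi205 was past it and Ifi203, at 0.12, and Ifi211, at 0.13, were not.

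**Figure D3:**
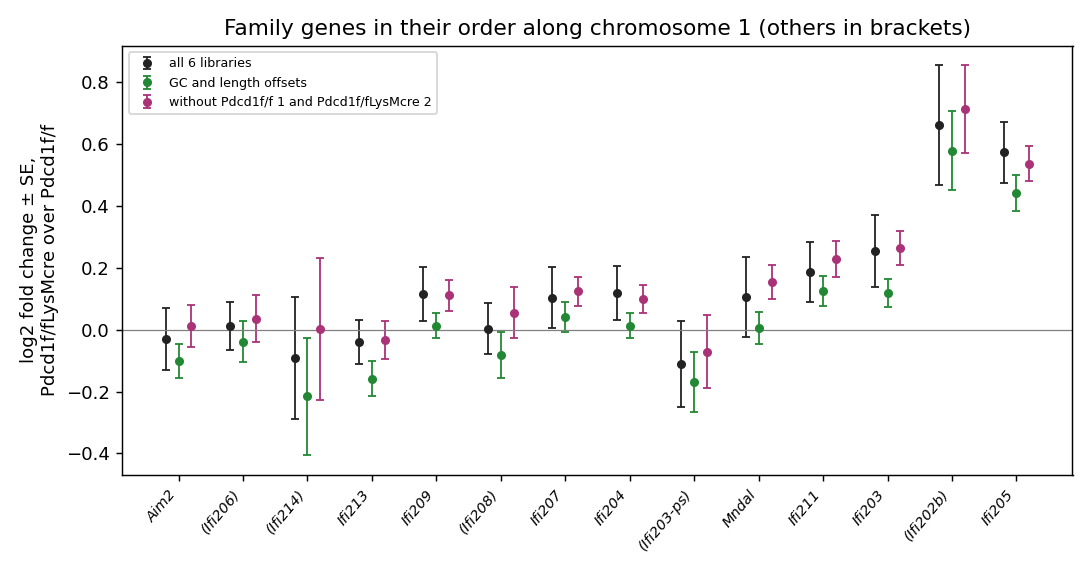
Log2 fold change of each family gene, Pdcd1f/fLysMcre over Pdcd1f/f, with its SE, in the order of the genes along chromosome 1, for all 6 libraries, with GC and length offsets, and without Pdcd1f/f replicate 1 and Pdcd1f/fLysMcre replicate 2. Ifi202b and Ifi205, at the far end of the cluster, have the highest values in all 3 fits, 0.66 and 0.57 with all 6 libraries.

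The ratio of Ifi205 to the other members within a library is given as a description, since the list was built around its rise. On the log2 CPM scale, Ifi205 minus the mean of the other 8 genes was −0.74 ± 0.05 in controls against −0.27 ± 0.08 with Cre (SD over 3 libraries), a difference of 0.46. The libraries of the genotypes did not overlap. Left-out libraries moved this difference between 0.44 and 0.51, and GC offsets to 0.43. Its mean log2 ratio to each of the 8 members was the higher in Pdcd1f/fLysMcre TAMs. These ratios all share Ifi205, whose own libraries did not overlap, so they largely restate its rise and nothing is read from their separation. The difference was smallest against Ifi203, at 0.31 (SE 0.08), and Ifi211, at 0.38 (SE 0.06), and largest against Ifi213, at 0.61 (SE 0.10). The 8 other genes together had 68147 ± 8069 normalized counts in controls against 73668 ± 7686 with Cre (SD, n = 3 each), and the genotypes overlapped.

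**Figure D4:**
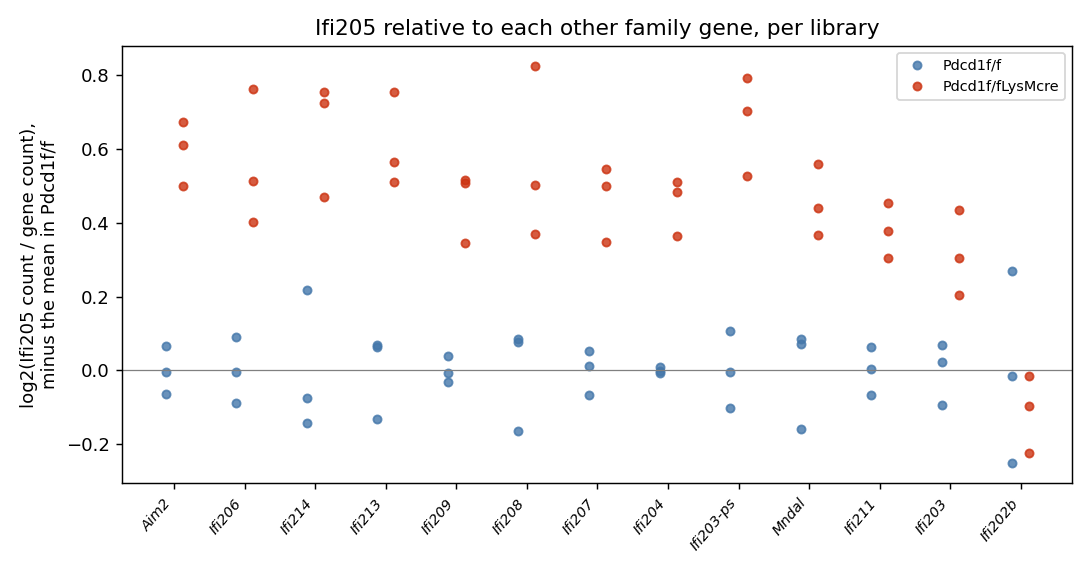
Log2 ratio of the count of Ifi205 to that of each other family gene in the same library, with the mean of the Pdcd1f/f libraries subtracted, one point for each library. Each ratio shares Ifi205, around whose rise the list was made, so a separation of the genotypes largely restates that rise. The genotypes overlap for Ifi202b.

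The question of reads split between copies was put to the sums. A division of reads between 2 genes leaves their sum as it is, but a pair can still exchange reads with further relatives, as Ifi205 and Ifi211 can with Mndal and Ifi204. The sum of Ifi205 and Ifi211 was 5586 ± 591 normalized counts in controls against 7471 ± 803 with Cre (SD, n = 3 each), 1.34 times as high, and no library of one genotype reached those of the other. The highest Pdcd1f/f library stood at 6262 and the lowest Pdcd1f/fLysMcre library at 6864. Most of this difference is that of Ifi205, around which the list was made, at 1562 normalized counts between the means against 324 for Ifi211, so the separation of this sum is no independent result. Ifi205 and its 4 word-sharing relatives together had 55926 ± 6739 and 61679 ± 6591 (SD, n = 3 each), a sum in which Ifi207 and Ifi204 weigh most, and the genotypes overlapped. Ifi205 and the 6 family genes linked to it by words in common, directly or through another gene, had 60918 ± 7470 and 67526 ± 7378 together (SD, n = 3 each), a ratio of 1.11 with overlapping genotypes. The sum of all 9 genes was 71360 ± 8352 and 78443 ± 8218 (SD, n = 3 each), also with overlap. Within that sum the share of Ifi205 was 4.37%, 4.64% and 4.53% in the controls and 5.68%, 6.22% and 6.36% in the Pdcd1f/fLysMcre libraries, or 4.51% ± 0.139 against 6.08% ± 0.360 (SD, n = 3 each). The share of Ifi203 was also higher in every Pdcd1f/fLysMcre library (6.45% against 6.99% on average). Shares of the other genes are not independent of the rise of Ifi205 in the same sum, and that of Ifi207 was lower (41.7% against 40.8%) although its mean count was not. The counts do not tell from which word a read came, and how reads that fit several genes were treated is not given in the sources used here, so how many of the reads of Ifi205 lay in its own words was not measured.

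The other genes of the family were not used to make the list. Of 5 tested, none was past the threshold in edgeR's test, 1 had an unadjusted p under 0.05, and DESeq2 called 1 and limma 0. Over all 14469 genes edgeR called 5.43%, or 786, 24.2% had an unadjusted p under 0.05, and DESeq2 called 1598. That gene was Ifi202b, whose product p202 lacks the pyrin domain and is known to inhibit the Aim2 inflammasome. Ifi202b was counted at a low level, 236, 145 and 169 normalized counts in the controls and 257, 356 and 259 in the Pdcd1f/fLysMcre libraries. Its genotypes did not overlap, and its log2 fold change was 0.66 (SE 0.19, edgeR adjusted p = 0.0730). It lies next to Ifi205 among the protein-coding family genes (chr1:173962568-173982744, minus strand) and shares no word with it. Ifi206, Ifi208, Ifi214 and Ifi203-ps had log2 fold changes of 0.01, 0.00, −0.09 and −0.11, with adjusted p-values from edgeR of 0.937, 0.985, 0.816 and 0.658. The signs of these 4 small values changed in at least 1 alternative, and Ifi214 had at most 110 normalized counts in a library.

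The interval with 500 kb on each side holds 47 further annotated genes, of which 39 had no count in any library. Gm18445, an unprocessed pseudogene between Ifi202b and Ifi205 (chr1:173986926-174001972, minus strand), had 30.6, 30.2 and 35.0 normalized counts in the controls and 81.4, 81.9 and 38.3 in the Pdcd1f/fLysMcre libraries. Pdcd1f/fLysMcre replicate 3 was close to the controls, and the log2 fold change of 1.08 (SE 0.31, edgeR adjusted p = 0.0697) was not past the threshold. Gm18445 was past it in 6 of 16 alternatives, among them DESeq2 and the GC and length offsets.

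Over the 6 libraries, the genes whose log2 CPM followed Ifi205 most closely among those tested were Utp4, Slc30a5 and Hbs1l (Pearson's r 0.999, 0.998 and 0.998, over 6 libraries that share their genotypes and GC shifts). None of these 3 lies in the family or was past the threshold. Within the family r was highest for Ifi202b, at 0.939, then Ifi211, at 0.852, and Ifi203, at 0.841, and it was −0.05 for Ifi213.

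Type I interferon-stimulated genes are the set that the family is usually counted with. Of 49 tested, 3 rose and 1 fell in edgeR's test, 8.16% against 5.43% of all genes, and their median log2 fold change was 0.06. Ifit1, an RNA-binding antiviral protein, went up, with 3292 ± 46.3 normalized counts in controls and 4204 ± 319 in Pdcd1f/fLysMcre TAMs (SD over 3 libraries) and a log2 fold change of 0.35 (SE 0.07, edgeR adjusted p = 0.0167). Rtp4, an interferon-induced chaperone, rose by 0.34 (SE 0.07, adjusted p = 0.0163) and Zc3hav1, an antiviral RNA-binding protein, by 0.32 (SE 0.06, adjusted p = 0.00980, edgeR), while Ifi27l2a fell by 0.27 on the log2 scale (edgeR adjusted p = 0.0349). Rsad2, the antiviral enzyme viperin, had a log2 fold change of 0.23 (edgeR adjusted p = 0.0649) and was past the threshold in 6 of 16 alternatives, among them DESeq2 and the GC and length offsets. The ubiquitin-like protein Isg15 had a log2 fold change of 0.04 (edgeR adjusted p = 0.826). The number of genes past the threshold was 19 without Pdcd1f/f replicate 1 and 0 without Pdcd1f/f replicate 2, Pdcd1f/f replicate 3 or Pdcd1f/fLysMcre replicate 1, and 21 without both GC-shifted libraries. Over all genes it was 3181 without Pdcd1f/f replicate 1 and between 222 and 530 without any other single library.

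Genes that make interferon or relay its signal had a median log2 fold change of 0.00, and 18.8% of the 16 tested were past the threshold, against 5.43% of all genes. Jak2, a kinase of the interferon-gamma and other cytokine receptors, rose, with a log2 fold change of 0.25 (SE 0.06, edgeR adjusted p = 0.0484), and was not past the threshold with DESeq2's size factors in edgeR, with library size alone or with limma. Irf1, a transcription factor induced by interferon, and Ifngr1, a receptor chain for interferon-gamma, fell by 0.36 (adjusted p = 0.0446) and 0.28 (adjusted p = 0.0254, edgeR for both) on the log2 scale. Ifnb1, which encodes interferon-beta, had 51.0, 43.6 and 28.5 normalized counts in the controls and 43.5, 32.4 and 40.3 in the others (edgeR adjusted p = 0.877). Irf7, a transcription factor that drives interferon genes, had a log2 fold change of −0.18 (edgeR adjusted p = 0.312). The count past the threshold was 0 without Pdcd1f/f replicate 2, Pdcd1f/f replicate 3 or Pdcd1f/fLysMcre replicate 1, 1 without either of the other 2 Pdcd1f/fLysMcre libraries, 6 without Pdcd1f/f replicate 1 and 6 without both GC-shifted libraries.

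Genes induced mainly by interferon-gamma showed 2 decreases and no increase among 13 tested (15.4% against 5.43% of all genes in either direction and 3.01% lower), with a median log2 fold change of −0.06. Cxcl9, a chemokine that attracts T cells, went down, with 2052 ± 151 normalized counts in controls and 1219 ± 122 in Pdcd1f/fLysMcre TAMs (SD over 3 libraries) and a log2 fold change of −0.75 (SE 0.09, edgeR adjusted p = 0.00122). Iigp1, an immunity-related GTPase, fell by 0.43 on the log2 scale (SE 0.09, edgeR adjusted p = 0.0179). The count was 1 without Pdcd1f/f replicate 2 or any single Pdcd1f/fLysMcre library.

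The partners of the family in DNA sensing and in the inflammasome did not all go the same way. Of 31 genes tested, 2 rose and 2 fell, 12.9% against 5.43% of all genes, with a median log2 fold change of −0.04. Pycard, the gene of the adaptor ASC, had 3059, 3490 and 3138 normalized counts in the controls and 2346, 2504 and 2558 in the others, a log2 fold change of −0.38 (SE 0.07, edgeR adjusted p = 0.0156). Sting1, named Tmem173 in the annotation, which encodes the adaptor of cytosolic DNA sensing, fell by 0.42 (SE 0.08, edgeR adjusted p = 0.0174). The cytokine genes Il1a, with a log2 fold change of 0.69 (SE 0.08, adjusted p = 0.000695), and Il1b, with 0.31 (SE 0.06, adjusted p = 0.0128, edgeR for both), rose. Cgas, which encodes the DNA sensor cGAS, had a log2 fold change of 0.16 (adjusted p = 0.285) and Casp1 of 0.03 (adjusted p = 0.907, edgeR for both). The count was 8 without Pdcd1f/f replicate 1, 10 without both GC-shifted libraries, and 1 or 2 without each other library apart from Pdcd1f/fLysMcre replicate 3, where it was 4. Of the genes named in these 4 lists as having risen or fallen, Il1a and Cxcl9 were past the threshold in 6 of 6 fits with a library left out and the others in 1 to 3 of 6.

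**Figure D5:**
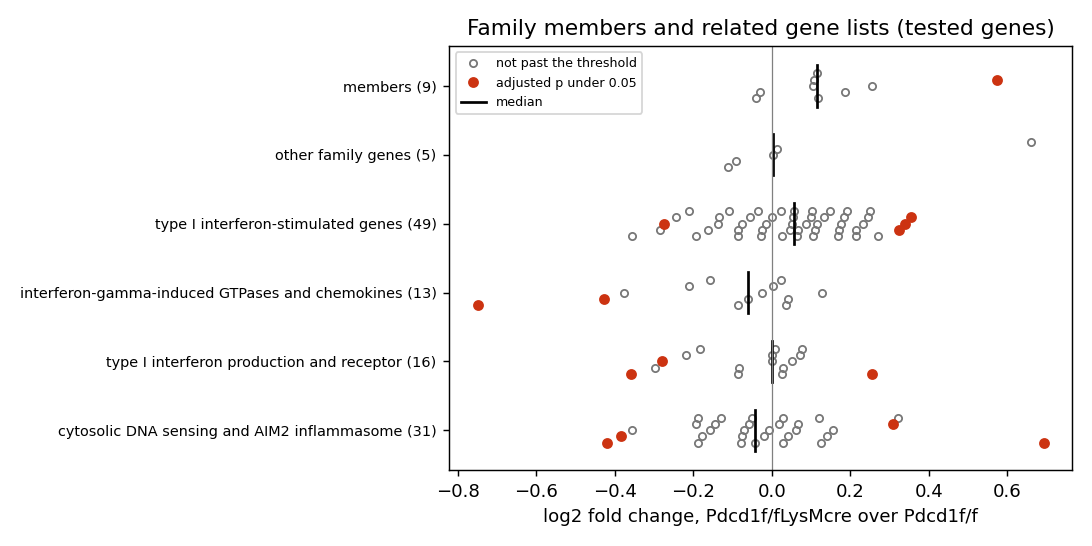
Log2 fold change of each tested gene of the family and of the related lists, Pdcd1f/fLysMcre over Pdcd1f/f, with filled points past an adjusted p of 0.05 in edgeR's test over all genes and a line at the median of each list. Ifi205 is the filled point among the 9 members, whose median is 0.12, and filled points lie on both sides of 0 in 3 of the other lists.

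Markers of the sorted cells moved with the genotype. Of 12 macrophage markers, 8 fell in edgeR's test, where 3.01% of all genes fell, among them Adgre1, which encodes F4/80 and has a log2 fold change of −0.38 (edgeR adjusted p = 0.00496), and their sum ran from 495554 to 621431 normalized counts in controls and from 381016 to 424095 with Cre. Of the markers of other cells, 0 of 5 tested T and NK cell genes, 0 of 2 B cell genes, 0 of 4 neutrophil genes and 0 of 6 dendritic cell genes were past the threshold in edgeR's test, and 3 of 10 stromal genes fell. Unadjusted p-values under 0.05 were found for 1 T and NK cell gene, 1 B cell gene, 1 neutrophil gene and 3 dendritic cell genes, against 24.2% of all genes, and DESeq2 called 0, 1, 0 and 1 of these lists while limma called 0 in each. Their summed normalized counts in control and Pdcd1f/fLysMcre libraries were 683 to 777 and 647 to 809 for T and NK cells, 350 to 394 and 302 to 356 for B cells, 1736 to 2239 and 2153 to 2312 for neutrophils, 517 to 656 and 548 to 613 for dendritic cells, and 4539 to 4741 and 3880 to 4270 for stroma. Pax5, 1 of 7 B cell markers on the list, had no count, whereas the other markers of that list had counts. The part of these markers in the values of the Ifi200 family was not tested.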

How the data were processed

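The authors trimmed adapters (cutadapt 2.5), aligned paired reads of 42 bases to GRCm38 with STAR 2.7.3a and counted them per Ensembl gene with featureCounts (Subread 1.6.2), per the submitters' processing notes and the study's methods. The library kit keeps strand; whether counting used it, and how reads that fit several genes were treated, is not given in the sources used here. The deposited raw counts were tested. The deposited normalized counts, a signal equal to the raw counts divided by 1 DESeq2 (1.24.0) size factor per library (0.895 to 1.08), were used for levels. All 6 libraries were used, and 0 columns of sample values were left out. No library repeated another of its genotype within counting noise (chi-square per gene from 5.42 to 43.0 over 6 pairs).

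Genotypes were compared with edgeR 4.0.16 (R 4.3.3) using filterByExpr (minimum count 10, total 15), TMM, glmQLFit with robust estimation, the two-sided glmQLFTest and Benjamini-Hochberg adjustment over 14469 genes, with a threshold of 0.05. Standard errors came from the fold change and the F statistic. In simulated counts over 14279 genes, this fit recovered 68 of 100 genes changed by 0.5 on the log2 scale and 100 of 100 changed by 1, with 8 false calls. The simulation gave every gene the same dispersion, changed only genes with higher counts and held no GC shift between libraries. Its recovery and false calls therefore do not carry over to the measured libraries. DESeq2 1.42.0 and limma 3.58.1 on log2(normalized count + 1) were alternatives, beside other filters and scalings, loess offsets for GC content and length (span 0.5), and left-out libraries. Log2 CPM used a prior count of 2.

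Symbols, positions and transcripts came from GENCODE M21 (GRCm38), whose Ensembl release differs from the authors'. Shared words were sought in annotated transcripts, not in the genome. Promoters came from RefSeq. The members and lists were chosen with earlier results of these data known. Named were all 9 members, every other family gene, the 4 largest changes past the threshold in each pathway list, a fixed set (Sting1, Cgas, Pycard, Casp1, Irf7, Ifnb1, Isg15, Rsad2 and Ifit1), tested neighbours, the 3 genes most like Ifi205, and Pdcd1 and Lyz2. Some genes that this rule names are not reported here. Adgre1 and Pax5 were named after their values were seen.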

Additional observations from a re-analysis of the deposited data

How the results depend on the processing

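The log2 fold change of Ifi205 stayed above 0 in all 16 alternatives, from 0.44 with the replicate block and GC and length offsets to 0.64 without Pdcd1f/fLysMcre replicate 1, and in each it was the highest among the 9 members. It was past the threshold in 15, all except the fit without Pdcd1f/f replicate 2. Over all genes, between 222 and 3757 were past it in these alternatives. Nothing is read from these calls or this rank, because Ifi205 was listed for its rise in the same libraries. Left-out libraries gave log2 fold changes of 0.47 to 0.64 for Ifi205. Those of Ifi203, Ifi204, Ifi207, Ifi209 and Ifi211 were above 0 in all 16, that of Mndal in 15, that of Aim2 in 2 and that of Ifi213 in 0. The median of all genes moved by less than 0.1 under every scaling.

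The number of members past the threshold was 1, and 0 to 3 with a library left out, with 3 without Pdcd1f/f replicate 1 (Ifi203, Ifi205 and Ifi211) and 0 without Pdcd1f/f replicate 2. It was 2 with all genes of at least 1 count (Ifi205 and Ifi203, both higher) and 2 with the replicate block and GC and length offsets (Ifi205 higher and Ifi213 lower, at −0.16), and 4 without both GC-shifted libraries. For the other family genes it was 0 to 1 with a library left out, and 1, each time Ifi202b, with all genes of at least 1 count, GC and length offsets, the block with these offsets, both GC-shifted libraries left out, or DESeq2. Interferon-stimulated genes numbered 0 to 19 with a library left out, 10 with all genes of at least 1 count, 17 with GC and length offsets, 19 with the block and these offsets, 21 without both GC-shifted libraries and 13 with DESeq2. DNA sensing and inflammasome genes numbered 1 to 8 with a library left out, 10 with offsets, 11 with the block and offsets and 10 without both libraries. Genes of interferon production and receptors numbered 0 to 6 with a library left out and 6 without both libraries. Interferon-gamma-induced genes numbered 1 to 3 with a library left out, 4 with offsets and 4 with the block and offsets. Over all genes the number was 786, against 1598 with DESeq2, 1951 with all genes of at least 1 count, 2888 with offsets, 3076 with the block and offsets, 3757 without both libraries and 222 to 3181 with a library left out. The cause of these moves was not tested.

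Whether the replicate numbers of the labels pair the libraries was not settled. Deviations of same-numbered libraries from their genotype means correlated at −0.0421, −0.268 and 0.520. With the replicate number as a block, 1027 genes passed, among them 1 member, Ifi205, with a log2 fold change of 0.57.

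The difference of Ifi205 from the mean of the other 8 members was 0.44 to 0.51 with a library left out, and the log2 ratio of the summed members 0.05 to 0.23. With 1 mismatch allowed between family genes, 23.0% of the words of Ifi205 were shared.

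Of the genes outside the member list, small values changed sign. Ifi206 had −0.0053 with library size alone, −0.038 with offsets and −0.042 with the block and offsets (−0.046 to 0.060 with a library left out). Ifi208 had −0.015, −0.081 and −0.080 in the same order (−0.049 to 0.033). Casp1 had −0.041 with offsets and −0.042 with the block and offsets (−0.083 to 0.14). Without both GC-shifted libraries Ifi214 had 0.0019 and Ifnb1 0.22. With a library left out, Ifi214 ranged from −0.21 to 0.059, Ifnb1 from −0.29 to 0.098, Ifi203-ps from −0.21 to 0.013 and Isg15 from −0.063 to 0.12. At 3 counts, a library's floor was 0.0583 to 0.0717 CPM, far below every member. The offsets for Ifi205 minus the mean of the others, and leaving out both libraries for it and for the sum, were chosen after the data were seen.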
